A study of Mus musculus with 2 samples.

Results

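The extracellular matrix around a cell is cut, protected and cross-linked by secreted and surface enzymes, and 10 genes of that machinery were followed in mouse embryonic stem cells (mESCs) depleted of AIMP3. They are the metalloprotease genes *Mmp2*, *Mmp14* and *Adamts1*, the inhibitor genes *Timp1*, *Timp2* and *Timp3*, the plasminogen activator genes *Plau* and *Plat*, and the lysyl oxidase genes *Lox* and *Loxl2*. They were found as the array probes whose accession maps to 1 of these symbols in RefSeq. This gave 14 probes for 10 genes, of 55681 probes on each array. *Loxl2* had 3 probes, *Timp2* and *Lox* had 2 each, and the other genes had 1. All 14 probes were well above background for both dyes on each array and entered the test, which covered 24023 genes in all.

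AIMP3 (gene *Eef1e1*) belongs to the large complex that holds many tRNA synthetases together, and the arrays asked which transcripts change in mESCs that lose it. The cells carry loxP-flanked alleles and a Cre recombinase that tamoxifen switches on (AIMP3f/f;cre-ERT2). AIMP3-depleted cells received 2 μM tamoxifen for 4 days in medium with LIF, in 2 replicates, and control cells of the same genotype received ethanol. Each Agilent 2-colour array took Cy5-labelled RNA of 1 AIMP3-depleted replicate (array 1 for replicate 1, array 2 for replicate 2). The other channel of both arrays took Cy3-labelled RNA of the control cultures, pooled into 1 sample. A ratio against this pool leaves out the spread between control cultures, and nothing in the labels says whether the replicates came from separate derivations, so that the p-values measure only the spread between these 2 arrays. The dyes were not swapped and control cells never met the drug. Loss of AIMP3, tamoxifen, active Cre and a dye preference of a single probe therefore cannot be told apart. The lines were clones derived from blastocysts, and neither the promoter that drives Cre nor the number of clones used for the arrays is given in the sources used here.

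The targeted transcript served as a check of the labels. *Eef1e1* read 4591 in the control pool and 2453 in AIMP3-depleted cells on array 1, and 4492 and 2415 on array 2, in normalized intensity (spot brightness after background correction and dye normalization, in arbitrary units). Its log2 ratio was −0.90 ± 0.0066 (SD, n = 2), with a Benjamini-Hochberg adjusted p of 4.78e-05 in limma. The mESC markers *Pou5f1*, *Nanog* and *Sox2* and the other 7 of a list of 10 were well above background for both dyes on each array. No spot was saturated, and the median signal was 2.68 to 3.31 times the local background.

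Matrix metalloproteases cut collagens and other matrix proteins with a zinc ion in their active site. They are made as inactive proenzymes, and tissue inhibitors of metalloproteases (TIMPs) bind and block them. *Mmp14* encodes a membrane-anchored protease that, with TIMP2 as a bridge, activates the secreted gelatinase MMP2, so that TIMP2 both assists and restrains the same reaction. ADAMTS1 is a secreted metalloprotease that cuts matrix proteoglycans and is inhibited by TIMP3, the TIMP that stays bound to the matrix. The serine proteases uPA (*Plau*) and tPA (*Plat*) turn plasminogen into plasmin, which degrades fibrin and activates proenzymes. Lysyl oxidases are copper enzymes that oxidize lysines of collagen and elastin and so start their cross-linking. In the early mouse embryo the extraembryonic endoderm and the trophoblast are known for making basement membrane, plasminogen activators and matrix proteases.

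The sequences just upstream of the genes are shown for the 3 TIMP genes, which rose together, and for *Adamts1*, whose window differed from theirs by a TATA motif. RefSeq promoter windows on GRCm38.p6 were read for 5 of the 10 genes. The window of *Lox* was left out, and none was given for *Mmp2*, *Plau*, *Plat* and *Loxl2*. The 250 bases before the annotated start were searched on both strands for the GC box GGGCGG, the TATA motif TATAAA, the TEAD motif GGAATG and the AP-1 motif TGANTCA (N is any base). Each sequence runs 5′ to 3′ along the strand of the gene and ends at the base before the start, with matches in capitals. The windows lie at chrX:20869916-20870165 (+ strand) for *Timp1*, chr11:118355412-118355661 (− strand) for *Timp2*, chr10:86300162-86300411 (+ strand) for *Timp3* and chr16:85803114-85803363 (− strand) for *Adamts1*.
Timp1: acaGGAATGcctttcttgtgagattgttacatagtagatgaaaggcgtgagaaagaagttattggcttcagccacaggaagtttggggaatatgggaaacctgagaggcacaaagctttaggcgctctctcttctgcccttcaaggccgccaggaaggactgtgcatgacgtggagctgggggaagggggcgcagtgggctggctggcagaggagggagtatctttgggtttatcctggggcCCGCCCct
Timp2: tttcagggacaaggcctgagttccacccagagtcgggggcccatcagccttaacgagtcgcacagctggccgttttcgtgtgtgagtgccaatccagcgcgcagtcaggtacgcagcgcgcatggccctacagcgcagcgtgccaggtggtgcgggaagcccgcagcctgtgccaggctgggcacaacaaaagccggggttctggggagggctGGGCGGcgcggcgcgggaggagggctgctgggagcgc
Timp3: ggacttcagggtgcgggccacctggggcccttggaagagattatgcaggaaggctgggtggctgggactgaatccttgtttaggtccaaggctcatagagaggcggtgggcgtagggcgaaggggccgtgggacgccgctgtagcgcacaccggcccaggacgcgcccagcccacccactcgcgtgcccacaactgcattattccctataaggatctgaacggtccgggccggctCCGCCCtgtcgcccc
Adamts1: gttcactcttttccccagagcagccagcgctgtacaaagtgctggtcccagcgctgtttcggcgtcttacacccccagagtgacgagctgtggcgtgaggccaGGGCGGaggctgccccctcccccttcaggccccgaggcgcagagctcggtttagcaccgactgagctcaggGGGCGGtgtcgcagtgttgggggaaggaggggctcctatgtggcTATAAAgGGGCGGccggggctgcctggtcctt
The GC box occurred in all 5 windows, *Mmp14* included (chr14:54431348-54431597, + strand), against 32.7% of the 32851 promoter windows of the same length in the table. It occurred 3 times in *Adamts1*, 2 times in *Mmp14* and 1 time in each TIMP window. TATAAA was present in *Adamts1* alone, 32 bases before the start, and in 12.4% of all windows. GGAATG was present in *Timp1* alone, 247 bases before the start, and in 12.6% of all windows. TGANTCA was found in 0 of the 5 windows and in 6.75% of all. The windows of *Timp2* (68.0% G and C), *Timp3* (65.6%) and *Adamts1* (65.6%) were richer in G and C than those of *Mmp14* (55.2%) and *Timp1* (54.4%), and the median of all windows was 52.4%. These matches describe letters in the windows only.

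Of the 10 genes, 6 were raised in AIMP3-depleted mESCs, 0 were lowered and 4 were not called. A gene was called when it changed over 1.5-fold with an unadjusted p under 0.05 in limma, and by that rule 5.53% of all tested genes were raised and 0.791% were lowered. All 3 TIMP genes and both lysyl oxidase genes rose, *Adamts1* rose, and *Mmp2*, *Mmp14*, *Plau* and *Plat* did not pass. The log2 ratios of the 10 genes ran from 0.0056 (*Mmp2*) to 1.20 (*Timp2*), with a median of 0.66 (0.63 on array 1 and 0.68 on array 2), where the median of all tested genes was 0.02. The central 90% of tested genes lay between −0.36 and 0.62. The 6 raised genes were above 1.5-fold on each array by itself. With a Benjamini-Hochberg adjusted p under 0.05 at any fold as the rule, limma called 9 of the 10 genes raised, a rule by which 30.6% of all tested genes were raised and 23.7% lowered.

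**Figure D1:**
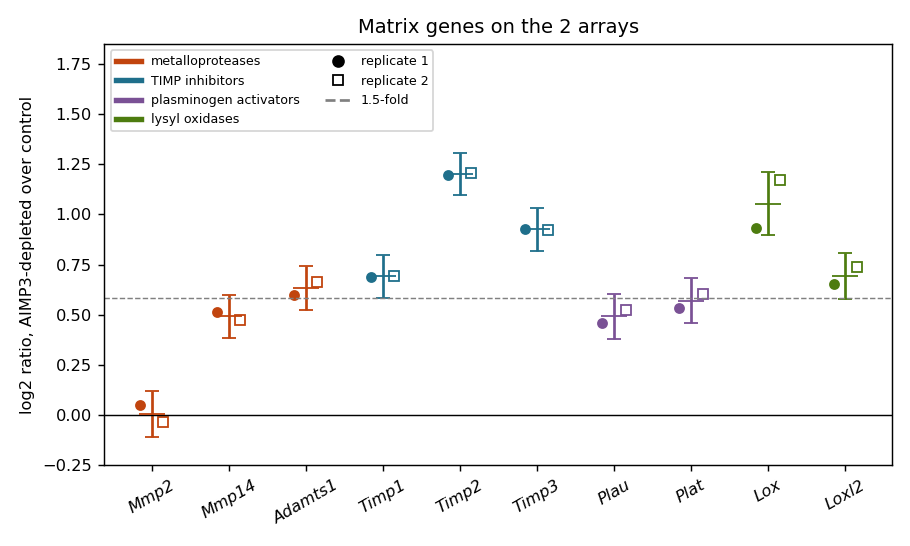
Log2 ratios, AIMP3-depleted over control, are plotted for each of the 10 genes, with a filled circle for replicate 1, an open square for replicate 2, a horizontal tick for their mean, a bar for the 95% confidence interval of limma and a dashed line at 1.5-fold. The 3 TIMP genes and *Lox* and *Loxl2* lie above the dashed line on both arrays, *Adamts1* lies just above it, and *Mmp2* lies at 0.

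With loess dye normalization the TIMP genes held the largest change of the 10. *Lox* held it with the scanner software's processed signals (log2 ratio 1.39, against 1.24 for *Timp2*) and in the authors' deposited log2 ratios (1.43, against 1.28). *Timp2*, which encodes the inhibitor that also bridges pro-MMP2 to MMP14, read 7081 in the control pool and 16240 in AIMP3-depleted cells on array 1, and 6838 and 15785 on array 2. Its log2 ratios of 1.20 and 1.21 gave a mean of 1.20 ± 0.0065 (SD, n = 2), a 2.30-fold rise (95% confidence interval of the log2 ratio 1.10 to 1.31). The limma adjusted p was 3.29e-05, and *Timp2* ranked 138 of the 24023 tested genes by log2 ratio. Its other probe, which read 2331 and 4767 on array 1 and 2105 and 4563 on array 2, gave 1.07 ± 0.059. Both probes thus passed 2-fold on both arrays.

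*Timp3*, the matrix-bound inhibitor that also blocks ADAMTS and ADAM proteases, read 2899 and 5509 (control pool, then AIMP3-depleted) on array 1. On array 2 it read 2705 and 5131. The log2 ratio was 0.93 ± 0.0016 (SD, n = 2), a 1.90-fold rise with a limma adjusted p of 4.62e-05. *Timp1*, the TIMP gene best known for induction by growth factors and cytokines, read 10671 and 17195 on array 1 and 10067 and 16291 on array 2. Its log2 ratio was 0.69 ± 0.0043 (SD, n = 2), a 1.61-fold rise with a limma adjusted p of 9.1e-05. At the probes that represent the genes, the order *Timp2*, *Timp3*, *Timp1* was the same on both arrays. *Timp2* exceeded *Timp3* by 0.27 and 0.28 on the log2 scale, and *Timp3* exceeded *Timp1* by 0.24 and 0.23. Each gap was wider than the difference between the arrays of any of these probes. That difference does not cover the spread between probes, and probes of 1 gene differed by 0.13 (*Timp2*), 0.28 (*Loxl2*) and 0.41 (*Lox*). The other *Timp2* probe gave 1.03 and 1.12, closer to *Timp3*.

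The TIMP genes share their loci with other genes. *Timp1* lies within *Syn1* and *Timp3* within *Syn3*, genes for synapsins, which coat synaptic vesicles, and *Cep295nl* lies inside *Timp2* (RefSeq, GRCm38.p6). *Syn1* gave log2 ratios of −0.02 and 0.04, so that *Timp1* exceeded its host gene by 0.71 and 0.65 on the log2 scale. *Cep295nl* gave 0.33 and 0.50, and *Timp2* exceeded it by 0.87 and 0.70. *Syn3* was not tested.

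Among the metalloproteases, *Adamts1* was the 1 member of 3 that passed. It read 1697 in the control pool and 2572 in AIMP3-depleted cells on array 1, and 1657 and 2625 on array 2. Its log2 ratio was 0.63 ± 0.045 (SD, n = 2), a 1.55-fold rise with a limma adjusted p of 0.000138, and the lower value, 0.60, was close to the threshold of 0.58. The 95% confidence interval of 0.52 to 0.74 included the threshold. *Timp3*, whose product inhibits ADAMTS1, had a log2 ratio that was higher by 0.33 on array 1 and by 0.26 on array 2.

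*Mmp14*, the membrane-anchored activator of MMP2, read 706 and 1006 on array 1 and 657 and 911 on array 2. Its log2 ratio of 0.49 ± 0.028 (SD, n = 2), 1.41-fold, had a limma adjusted p of 0.000306 but was below 1.5-fold on both arrays. *Mmp2*, the gelatinase itself, read 1848 and 1911 on array 1 and 1782 and 1736 on array 2, so that its log2 ratios of 0.05 and −0.04 had opposite signs. The mean was 0.0056 ± 0.061 (SD, n = 2), with a 95% confidence interval of −0.11 to 0.12 and a limma adjusted p of 0.927. A rise or fall of *Mmp2* as large as that of *Mmp14* thus lay outside the interval. Within the MMP14, TIMP2 and MMP2 trio, the log2 ratio of *Timp2* exceeded that of *Mmp14* by 0.69 and 0.74 and that of *Mmp2* by 1.15 and 1.24 on the 2 arrays. Each TIMP gene had a higher log2 ratio than *Mmp2* and *Mmp14*, a comparison across probes whose differences the spread between arrays does not cover. The gap between the lowest TIMP gene and the higher of the 2 protease genes was 0.20, and it was 0.19 without background subtraction, 0.15 with processed signals, 0.30 with median centring, 0.18 on array 1 alone and 0.22 on array 2 alone.

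The plasminogen activators moved by similar amounts, and neither passed. *Plat* (tPA) read 472 and 683 on array 1 and 373 and 568 on array 2. Its log2 ratio was 0.57 ± 0.051 (SD, n = 2), 1.48-fold with a limma adjusted p of 0.000203, with 1 array on each side of the threshold of 0.58 (0.53 and 0.61). On array 2 by itself *Plat* was thus over 1.5-fold. The control pool, which was the same RNA on both arrays, differed at this probe by −0.34 on the log2 scale (array 2 minus array 1), against −0.20 to −0.02 at the probes that represent the other 9 genes. *Plau* (uPA) read 170 and 233 on array 1 and 167 and 240 on array 2. Its log2 ratio was 0.49 ± 0.049 (SD, n = 2), 1.41-fold with a limma adjusted p of 0.00034. *Plau* lay below *Plat* by 0.08 on each array, and their 95% confidence intervals overlapped (0.38 to 0.60 and 0.46 to 0.68). With the scanner software's processed signals, which differ in background and dye correction, *Plau* had a log2 ratio of 0.83 and *Plat* of 0.66, both over 1.5-fold, and without background subtraction they had 0.52 and 0.62. Which step moved them was not tested. The *Plau* probe was dim in the control pool, with a median signal of 132.5 over a background of 53 on array 1. On array 2 it was 139.5 over 55.

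Both lysyl oxidase genes passed. *Lox*, which encodes the founding enzyme of the family, read 248 and 474 on array 1 and 217 and 489 on array 2. Its log2 ratios of 0.93 and 1.17 gave 1.05 ± 0.17 (SD, n = 2), 2.08-fold with a limma adjusted p of 8.46e-05, and the widest spread between arrays among the 10 genes. Without moderation of the variance its unadjusted p was 0.0723. The other *Lox* probe read 188 and 274 on array 1 and 179 and 299 on array 2, a log2 ratio of 0.64 ± 0.14. The 2 *Lox* probes thus agreed in direction and differed by 0.41 in size.

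*Loxl2*, which encodes a lysyl oxidase that acts on basement membrane collagen IV, read 3835 and 6022 on array 1 and 3727 and 6219 on array 2. Its log2 ratio was 0.69 ± 0.062 (SD, n = 2), 1.62-fold with a limma adjusted p of 0.000114. The other 2 probes gave 0.52 ± 0.031 and 0.41 ± 0.015, both under 1.5-fold, and the mean over the 3 probes was 0.54, so that the call of *Loxl2* rests on its brightest probe. At their brightest probes, the log2 ratio of *Lox* exceeded that of *Loxl2* by 0.28 on array 1 and by 0.44 on array 2. The other *Lox* probe gave 0.54 and 0.74, against 0.65 and 0.74 for the brightest *Loxl2* probe. The gap thus depended on the *Lox* probe.

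**Figure D2:**
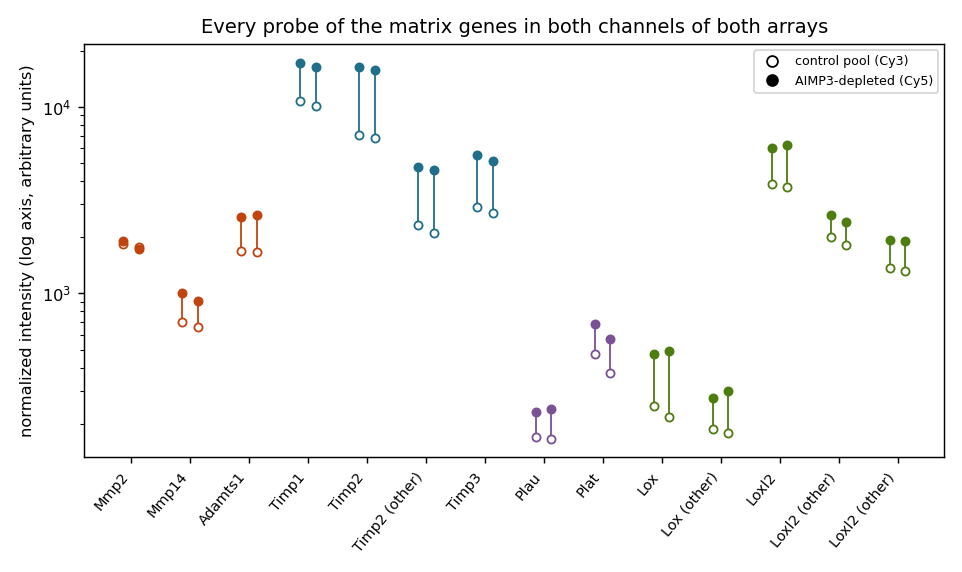
Normalized intensity (log axis, arbitrary units) is plotted for all 14 probes, with an open circle for the control pool, a filled circle for AIMP3-depleted cells and a line joining both channels of an array, array 1 on the left of each pair. The 1 line that falls is that of *Mmp2* on array 2 (1782 to 1736), that of *Mmp2* on array 1 is nearly flat (1848 to 1911), and the 8 probes over 1.5-fold are those of the TIMP genes, *Adamts1* and *Lox* and the brightest of *Loxl2*.

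In the order of the log2 ratios, several neighbours had overlapping confidence intervals. All genes were read on the same arrays, so overlap of their separate intervals does not show that they did not differ. With loess, *Timp2* stood above every other of the 10 genes on both arrays. Its interval of 1.10 to 1.31 overlapped that of *Lox* (0.90 to 1.21), which in turn overlapped that of *Timp3* (0.82 to 1.03). *Loxl2*, *Timp1* and *Adamts1* came next (means 0.69, 0.69 and 0.63), with overlapping intervals. *Plat*, *Mmp14* and *Plau* followed, likewise with overlapping intervals, and *Mmp2* stood apart below them. The intervals of *Plat* (0.46 to 0.68), *Mmp14* (0.38 to 0.60) and *Plau* (0.38 to 0.60) also overlapped those of raised genes. These were *Loxl2* (0.58 to 0.81), *Timp1* (0.59 to 0.80) and *Adamts1* (0.52 to 0.74). The intervals thus did not separate these raised genes from the genes not called above *Mmp2*, and the differences between genes were not tested. Array 2 gave the higher log2 ratio for 7 genes and array 1 for 3, and the difference between arrays ran from 0.0023 (*Timp3*) to 0.24 (*Lox*).

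Relatives of the 10 genes were grouped in lists by role. Of 72 such genes, 71 had a probe, 47 passed the background filter, 10 were raised (21.3%, against 5.53% of all tested genes) and 0 were lowered, with a median log2 ratio of 0.24. With both channels required to be well above background, 9 were raised. By the adjusted p at any fold, limma called 33 of the 47 in either direction, a rule by which 30.6% of all tested genes were raised and 23.7% lowered.

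In the metalloprotease family, 1 of 11 tested genes was raised (9.1%, near the 5.53% of all tested genes) and 0 were lowered. With *Mmp2* and *Mmp14* the family had 23 genes, and the median log2 ratio of those tested was 0.19. The raised gene was *Mmp3*, which encodes stromelysin 1, an activator of other pro-MMPs. It read 136 and 273 on array 1 and 135 and 215 on array 2, a log2 ratio of 0.84 ± 0.23 (SD, n = 2), with a limma adjusted p of 0.000347. Without moderation of the variance it did not pass. The others ran from −0.39 for *Mmp17*, which encodes a membrane-anchored protease, to 0.49 for *Mmp14*, and 12 genes of the family, *Mmp7*, *Mmp8* and *Mmp12* among them, were not tested. Of the inhibitors outside the 10 genes, *Timp4* was not tested and *Reck*, which encodes a membrane-anchored inhibitor of MMPs, read 639 and 562 on array 1 and 593 and 528 on array 2 (log2 ratio −0.18, and 0.04 at its other probe).

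Of 19 ADAMTS genes, 12 were tested and 2 were raised (16.7%, against 5.53% of all tested genes), with a median log2 ratio of 0.13. *Adamts7*, which encodes a protease of cartilage and vessel matrix, read 317 and 512 on array 1 and 307 and 489 on array 2, a log2 ratio of 0.68 ± 0.012 (SD, n = 2), close to the 0.63 of *Adamts1*. The other 10 tested genes lay between −0.16 (*Adamts14*) and 0.43 (*Adamts8*).

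Of 9 genes of the plasminogen system, *Plau* and *Plat* included, 7 were tested, all with positive log2 ratios and a median of 0.57. Of these, 3 were raised (42.9%, against 5.53% of all tested genes). *Plaur*, which encodes the surface receptor of uPA, read 5834 and 11045 on array 1 and 5326 and 10888 on array 2 (log2 ratio 0.98 ± 0.078, SD, n = 2). *Serpine2*, which encodes protease nexin 1, an inhibitor of thrombin and plasminogen activators, rose by 0.70 on the log2 scale. *Serpinb2*, which encodes PAI-2, was well above background in AIMP3-depleted RNA alone, at 138 and 142 against 92.3 and 85.4 in the control pool. It was 1.57-fold higher over the array means. The control signal was above the lowest signal called well above background, so that this fold is the measured ratio and no lower bound. It does not cover the spread between arrays (log2 ratios 0.577 and 0.728, the first under 1.5-fold). *Serpinb2* passed the background filter through the AIMP3-depleted channel, where it is high. Without *Plau* and *Plat*, the count of raised genes in the system was 2 when both channels had to be well above background, without background subtraction, without moderation and without replicate 2. *Lrp1*, the receptor that clears protease-serpin complexes (0.49), and *Plgrkt*, a plasminogen receptor (0.20), were not called. *Plg*, the gene for plasminogen itself, was not tested.

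In the lysyl oxidase family, 4 of 5 genes were raised (80.0%, against 5.53% of all tested genes), with a median log2 ratio of 0.72. *Loxl1*, known for its part in elastic fibres, read 554 and 1027 on array 1 and 576 and 965 on array 2, a log2 ratio of 0.82 ± 0.10 (SD, n = 2). *Loxl4* read 268 and 436, then 268 and 445, a log2 ratio of 0.72 ± 0.023. Without moderation 1 of these 2 calls was lost. *Loxl3* had 0.04 on array 1 and 0.45 on array 2, with a limma adjusted p of 0.064. Among 8 genes whose products mature proenzymes or procollagen, 6 were tested and 1 was raised (16.7%, against 5.53% of all tested genes). That gene was *Bmp1*, which encodes the protease that cuts the procollagen C-propeptide and activates pro-LOX, with 5462 and 11092 on array 1 and 5311 and 10031 on array 2 (log2 ratio 0.97 ± 0.074, SD, n = 2). The probes of *Bmp1* ranged from 0.25 to 1.25. *Pcolce*, the enhancer of that cleavage (0.50), and *Furin*, which activates pro-MMP14 (0.47), were not called. Of 13 surface and pericellular proteases and their inhibitors, 12 were tested and 2 were raised (16.7%, against 5.53% of all tested genes). The raised genes were *Adam8* (0.88 ± 0.037), a membrane-anchored metalloprotease, and *Htra1* (0.65 ± 0.011), a secreted serine protease.

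**Figure D3:**
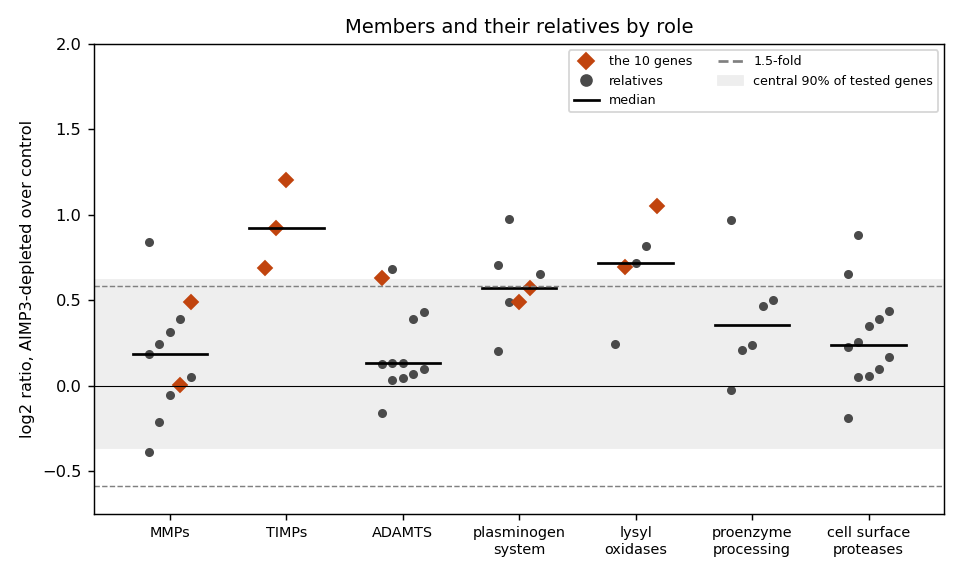
The mean log2 ratio of each tested gene is plotted by family, with diamonds for the 10 genes, grey circles for their relatives, a black line for the family median and grey shading for the central 90% of all tested genes (−0.36 to 0.62). The TIMP and lysyl oxidase medians of 0.93 and 0.72 lie above the 1.5-fold line, the plasminogen median of 0.57 lies just under it, and the MMP and ADAMTS medians are 0.19 and 0.13.

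Markers of other cell types moved with these genes. Embryonic fibroblasts express the TIMP, *Mmp2*, *Mmp14*, *Plat*, *Lox* and *Loxl2* genes, per the labels the mESCs were as a rule kept on fibroblast feeders, and the methods name fibroblast-conditioned medium for drug treatment. Of 17 fibroblast markers, 16 were tested and 11 were raised (68.8%, against 5.53% of all tested genes). The log2 ratios ran from *Fstl1* (0.06) to *Vim* (1.42), with a median of 0.76. The summed normalized intensity of the 16 tested markers was 53542 to 55206 in the control pool and 96066 to 98361 in AIMP3-depleted cells. All 16 were well above background for both dyes on each array, *Col1a1*, *Col1a2* and *Col3a1* included, and *Lum* was not tested. *Mmp2*, which fibroblasts also express, had a log2 ratio of 0.0056. Of 16 markers of primitive and parietal endoderm, 14 were raised (87.5%, against 5.53% of all tested genes), from *Amn* (0.23, not called) to *Sox17* (1.44). The sum of the 16 was 225759 to 233486 in the control pool and 451255 to 451487 in AIMP3-depleted cells. Most of that difference lay in the *Sparc* probe, which read 85296 and 205557 on array 1 and 94334 and 218730 on array 2. Of 8 trophectoderm markers, 7 were tested and 5 were raised (71.4%, against 5.53% of all tested genes). They ran from *Tfap2c* (−0.21, not called) to *Krt18* (1.78), with sums of 65756 to 67561 and 185786 to 198830. Most of the difference in these sums lay in the *Krt18* probe, which read 45027 and 152669 on array 1 and 48211 and 167601 on array 2. The 10 pluripotency markers, 0 of them called, ran from −0.53 (*Sox2*) to 0.50 (*Dppa5a*), where 5.53% of all tested genes were raised and 0.791% lowered. The part of each cell type in the values of the matrix genes was not tested, and in bulk RNA more cells of a type and more RNA per cell cannot be told apart.

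Both the size and the order of the ratios depended on the processing. Median centring in place of loess raised the median of all genes to 0.18 and that of the 10 genes to 0.88, which is 0.70 above all genes, against 0.65 above all genes with loess. *Mmp2* had the lowest log2 ratio of the 10 with each background and dye correction tried and on each array alone. *Timp2* had the highest with loess and with median centring, and *Lox* had it with the scanner software's processed signals (1.39, against 1.24 for *Timp2*) and in the authors' deposited log2 table (1.43, against 1.28). *Plau*, below *Loxl2*, *Timp1* and *Adamts1* with loess, was above all of them with processed signals (0.83, against 0.64, 0.67 and 0.64) and in the deposited table (0.87, against 0.68, 0.71 and 0.68).

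**Figure D4:**
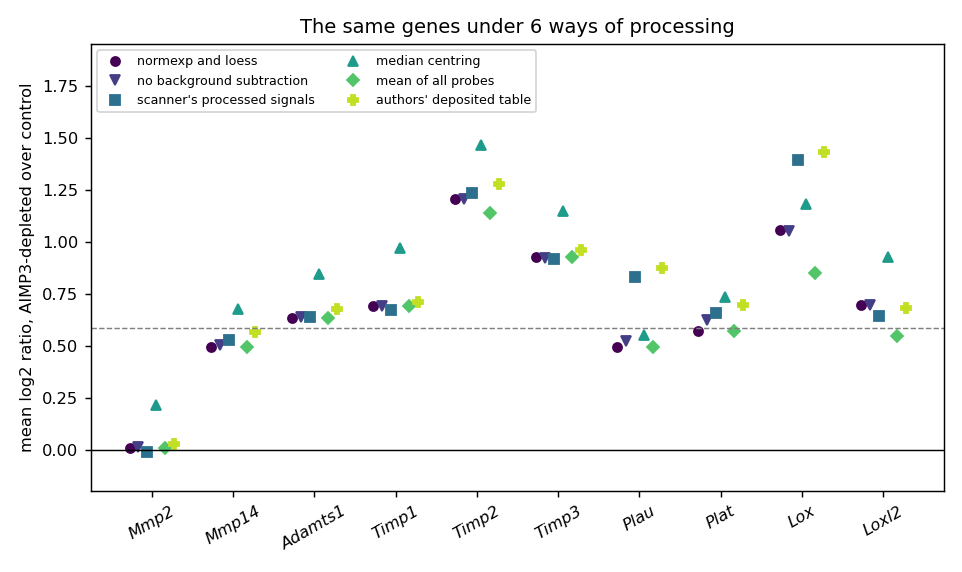
The mean log2 ratio of each gene is plotted under 6 ways of processing the same arrays, named in the legend, with a dashed line at 1.5-fold. *Mmp2* stays lowest under each, *Plau* runs from 0.49 to 0.87 and *Lox* from 0.85 to 1.43, and median centring lifts all 10 genes.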

How the data were processed

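Each of 2 arrays compared AIMP3-depleted RNA (Cy5) with 1 pool of control RNA (Cy3). The authors deposited scanner output of Feature Extraction 11.5.1.1 (version per the file headers), which holds unnormalized spot and background intensities, processed intensities after background subtraction and dye normalization, and a log10 ratio that was not used. A second deposited file gives log2 ratios that the authors normalized in GeneSpring. They equalled log2 of processed Cy5 over Cy3 signal plus 0.040 (replicate 1) and 0.039 (replicate 2), to within 0.01 for 99.7% of 55681 probes, which fixes their scale and direction (medians 0.0909 and 0.111). Columns of the authors' own comparisons are absent.

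Median signals stood in for mean signals, which these files lack. Background was corrected with limma's normexp (offset 50) and each array was normalized by loess, with control spots and outlier spots (215 and 227) at weight 0 and then left out. Spots of a probe were averaged, a probe was tested if, on each array, at least 1 dye was well above background (33012 probes), and the brightest probe stood for a gene. Accessions were named through RefSeq (GRCm38.p6, 31014 spots matched), whose promoter table gave the windows. The array was designed on another build, and no probe coordinates are given. The mean log2 ratio was tested against 0 with lmFit and eBayes (1 residual and 5.28 prior degrees of freedom), and Benjamini-Hochberg adjusted p-values cover all 24023 tested genes. A gene over 1.5-fold with unadjusted p under 0.05 was called. All 10 genes and *Eef1e1* are named, as are relatives that passed, list extremes, and further genes chosen after their values were seen (*Lrp1*, *Plgrkt*, *Plg*, *Loxl3*, *Pcolce*, *Furin*, *Reck*, *Adamts8*, *Timp4*, *Col1a1*, *Col1a2*, *Col3a1*, *Sparc*, overlapping genes and genes not tested). A gene of 1 list is not reported here and is left out of the counts of relatives. The 10 genes and all lists were chosen with earlier results of these data known. The steps were tested on simulated data. Precision is limited by there being 2 arrays. The 12 alternatives covered background, dye normalization, dim-probe filter, probe choice, authors' table, moderation, threshold and each replicate left out. Software was limma 3.58.1 in R 4.3.3, with jsonlite 2.0.0 and data.table (version 1.17.8).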

Additional observations from a re-analysis of the deposited data

How the results depend on the processing

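No paired analysis was possible because each array holds its own ratio and the labels give 1 group. The 6 raised matrix genes became 2 at 2-fold and lay between 5 and 9 under the other alternatives, with 0 lowered under each. Without 1 replicate, where no p exists and the fold alone is counted here and below, they numbered 6 to 7. *Plat* passed without background subtraction (0.62), with processed signals (0.66), with median centring (0.73), in the deposited table (0.70) and on array 2 alone (0.61), *Plau* with processed signals (0.83) and in the table (0.87), and *Mmp14* with median centring (0.67). *Loxl2* failed with the mean of probes (0.54) and *Lox* failed without moderation. *Mmp2* had the opposite sign with processed signals (−0.014) and on array 2 alone (−0.04), and had 0.21 with median centring, where the median of all genes was 0.18. Over all genes, 1328 raised and 190 lowered became 2827 and 64 with median centring, 2130 and 617 in the deposited table, 281 and 17 at 2-fold, and 7359 and 5687 by adjusted p at any fold. Lowered genes numbered 776 with processed signals, and raised genes 865 without moderation. Without 1 replicate, raised genes numbered 1323 to 1398 and lowered genes 199 to 253. The share of raised among called genes, 87.5%, was 71.5% with processed signals, 97.8% with median centring, 77.5% in the table and 56.4% by adjusted p. Called relatives, 10, became 0 at 2-fold, 33 by adjusted p at any fold, 15 with median centring, 14 in the table, 7 without moderation, 9 with both channels well above background and 9 to 10 without 1 replicate. The cause was not tested. The unswapped dyes and the single control pool limit all values.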
